A study of Rattus norvegicus with 50 samples.

Results

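Expression of 5 genes of cell division and cell cycle arrest was followed in the kidney of ZSF1 rats. They were Cdkn1a (ENSRNOG00000000521), Ccnd1 (ENSRNOG00000020918), Cdk1 (ENSRNOG00000000632), Top2a (ENSRNOG00000053047) and Mki67 (ENSRNOG00000028137). They were taken by Ensembl ID, 5 of the 32545 IDs in the deposited table, and all 5 were present and passed the filter on low values. Kidney cortex and kidney medulla were each sequenced in 5 groups of 5 libraries, 50 libraries in all. One group per tissue came from lean ZSF1 rats given vehicle. The other 4 came from obese ZSF1 rats given vehicle, enalapril at 10 mpk, MK-8722 at 1 mpk or MK-8722 at 10 mpk, with the unit as the labels write it. Treatment lasted 28 weeks, and the labels also give an age of 20 weeks, without saying when it was recorded. The obese ZSF1 rat is a model of progressive diabetic kidney disease. MK-8722 activates AMP-activated protein kinase, and enalapril inhibits angiotensin-converting enzyme. The study asked how such activation changes the diabetic kidney. Lean and obese rats differ in genotype, so that body weight and metabolic state move with genotype in every comparison of the 2. The libraries hold whole pieces of tissue, and the table pairs its IDs with no gene names, so the tissue labels were not checked against cell type markers here.

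Tubule cells of the adult kidney divide rarely and can re-enter the cell cycle after injury. Cyclin D1, encoded by Ccnd1, partners with the kinases that carry a cell through G1. Cdkn1a encodes p21, an inhibitor of cyclin-dependent kinases that p53 induces and that can hold a cell in arrest. Cdk1 encodes the kinase that drives entry into mitosis, and Top2a encodes the topoisomerase that untangles replicated chromosomes. Mki67 encodes Ki-67, a protein of the mitotic chromosome surface that is widely used as a marker of cycling cells. Transcripts of Cdk1, Top2a and Mki67 peak late in the cell cycle. Promoters of this class are known to hold CCAAT boxes and a cell cycle genes homology region (CHR). Their repression in resting cells acts through the CHR.

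The promoters of the 3 late cell cycle genes are shown because this class is known for the elements above. All 3 were called higher in obese than in lean vehicle rats in both tissues, as was Cdkn1a. Each is the 250 bases before the RefSeq transcript start, 5′ to 3′ on the strand of the gene, from a table of RefSeq promoters on GRCr8, in which 4 of the 5 genes were matched. Cdk1 lies on the plus strand at chr20:19265043-19265292, Top2a on the minus strand at chr10:84473094-84473343 and Mki67 on the minus strand at chr1:199952594-199952843. Capitals mark matches on either strand to CCAAT, which reads ATTGG on the opposite strand. They also mark the CHR spelling TTTGAA, which reads TTCAAA on the opposite strand, and the rarer CHR spelling TTCGAA. The E2F-like words TTTCGCGC, then TTTGGCGC, then TTTCCCGC are marked in the same way.
Cdk1: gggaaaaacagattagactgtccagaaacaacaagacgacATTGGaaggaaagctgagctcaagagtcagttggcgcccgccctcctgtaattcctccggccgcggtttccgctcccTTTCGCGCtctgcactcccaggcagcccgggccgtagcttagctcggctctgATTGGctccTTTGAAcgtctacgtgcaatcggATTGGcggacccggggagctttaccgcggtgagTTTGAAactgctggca
Top2a: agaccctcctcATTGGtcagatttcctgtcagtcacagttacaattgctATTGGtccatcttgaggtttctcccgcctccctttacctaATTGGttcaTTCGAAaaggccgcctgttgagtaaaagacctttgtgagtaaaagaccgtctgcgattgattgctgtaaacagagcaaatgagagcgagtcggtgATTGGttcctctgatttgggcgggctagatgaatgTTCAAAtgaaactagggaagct
Mki67: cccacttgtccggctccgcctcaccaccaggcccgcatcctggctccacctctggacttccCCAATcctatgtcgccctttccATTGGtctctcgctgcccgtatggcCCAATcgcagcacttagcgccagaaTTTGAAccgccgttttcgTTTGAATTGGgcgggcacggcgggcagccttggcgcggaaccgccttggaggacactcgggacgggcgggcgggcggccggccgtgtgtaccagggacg
Cdk1 held 3 CCAAT matches, 2 TTTGAA matches and 1 TTTCGCGC match. Top2a held 4 CCAAT matches, 1 TTTGAA match, written TTCAAA in the line shown, and 1 TTCGAA match. Mki67 held 4 CCAAT and 2 TTTGAA matches, and its second TTTGAA overlaps a CCAAT match on the other strand. The window of Cdkn1a (plus strand, chr20:7150682-7150931) held none of these words. Among 33469 promoter windows of the same length, 34.0% held at least 1 CCAAT match and 9.42% at least 2, while 16.2% held TTTGAA, 1.40% TTCGAA and 1.41% an E2F-like word. Windows with 2 or more CCAAT matches together with TTTGAA or TTCGAA made up 1.74%, a combination present in all 3 windows printed. Those 3 were picked from a class known for these elements, and no link of the words to obesity was tested. A match describes the letters only, and a window without one says nothing about the factors that bind there.

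Values are FPKM as deposited, meaning fragments for each kilobase of a transcript, relative to all mapped fragments of a library. Log2 fold changes are differences of log2(FPKM + 0.5), which understates the change of low genes. They were tested with limma. A gene is called when its p, adjusted by Benjamini-Hochberg across every tested gene, is under 0.05. Relative depth, read from the steps of low values, ran from 0.58 to 1.48 between libraries and averaged 1.32 in cortex of lean rats against 0.992 with obese vehicle. In medulla these means were 1.09 and 0.705 (n = 5 each). In cortex it averaged 1.21 with enalapril, 1.03 with MK-8722 at 1 mpk and 1.30 at 10 mpk. In medulla the means of these 3 groups were 0.743, 0.773 and 0.842. The whole transcriptome shifted on the FPKM scale, with a median log2 fold change over all tested genes of 0.30 in cortex and 0.37 in medulla between obese and lean vehicle. Each change was therefore also computed after median-ratio rescaling of the libraries, which removes such a shift. The 6 IDs of highest mean FPKM held on average 61.2% of summed FPKM in lean cortex and 52.6% in obese vehicle cortex. In medulla they held 61.9% and 54.0%. The part of these shares in the shift was not tested. In cortex, 8 libraries had numbers in a separate higher range, 2 of lean vehicle, 3 of MK-8722 10 mpk and 1 of each other group. The labels do not tie libraries to animals, and every p-value rests on the spread among the libraries alone.

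In kidneys of obese vehicle rats, transcripts of the arrest gene Cdkn1a and of the division genes Cdk1, Top2a and Mki67 were all higher than in lean rats, in both tissues. Ccnd1 was lower in obese medulla and did not pass the test in cortex on the deposited values. In cortex, 4 of the 5 genes were called higher, in a comparison where 54.3% of all tested genes were called higher and 6.83% lower. In medulla, 4 were called higher and 1 lower, against 56.8% of all genes higher and 10.9% lower. A rise on the FPKM scale was thus common among all genes, and the size of each change is given beside its call. In whole tissue, fewer cells of a type and less RNA per cell cannot be told apart. Cdk1, Top2a and Mki67 were under 1 FPKM in every lean library and passed the filter only through obese libraries.

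**Figure D1:**
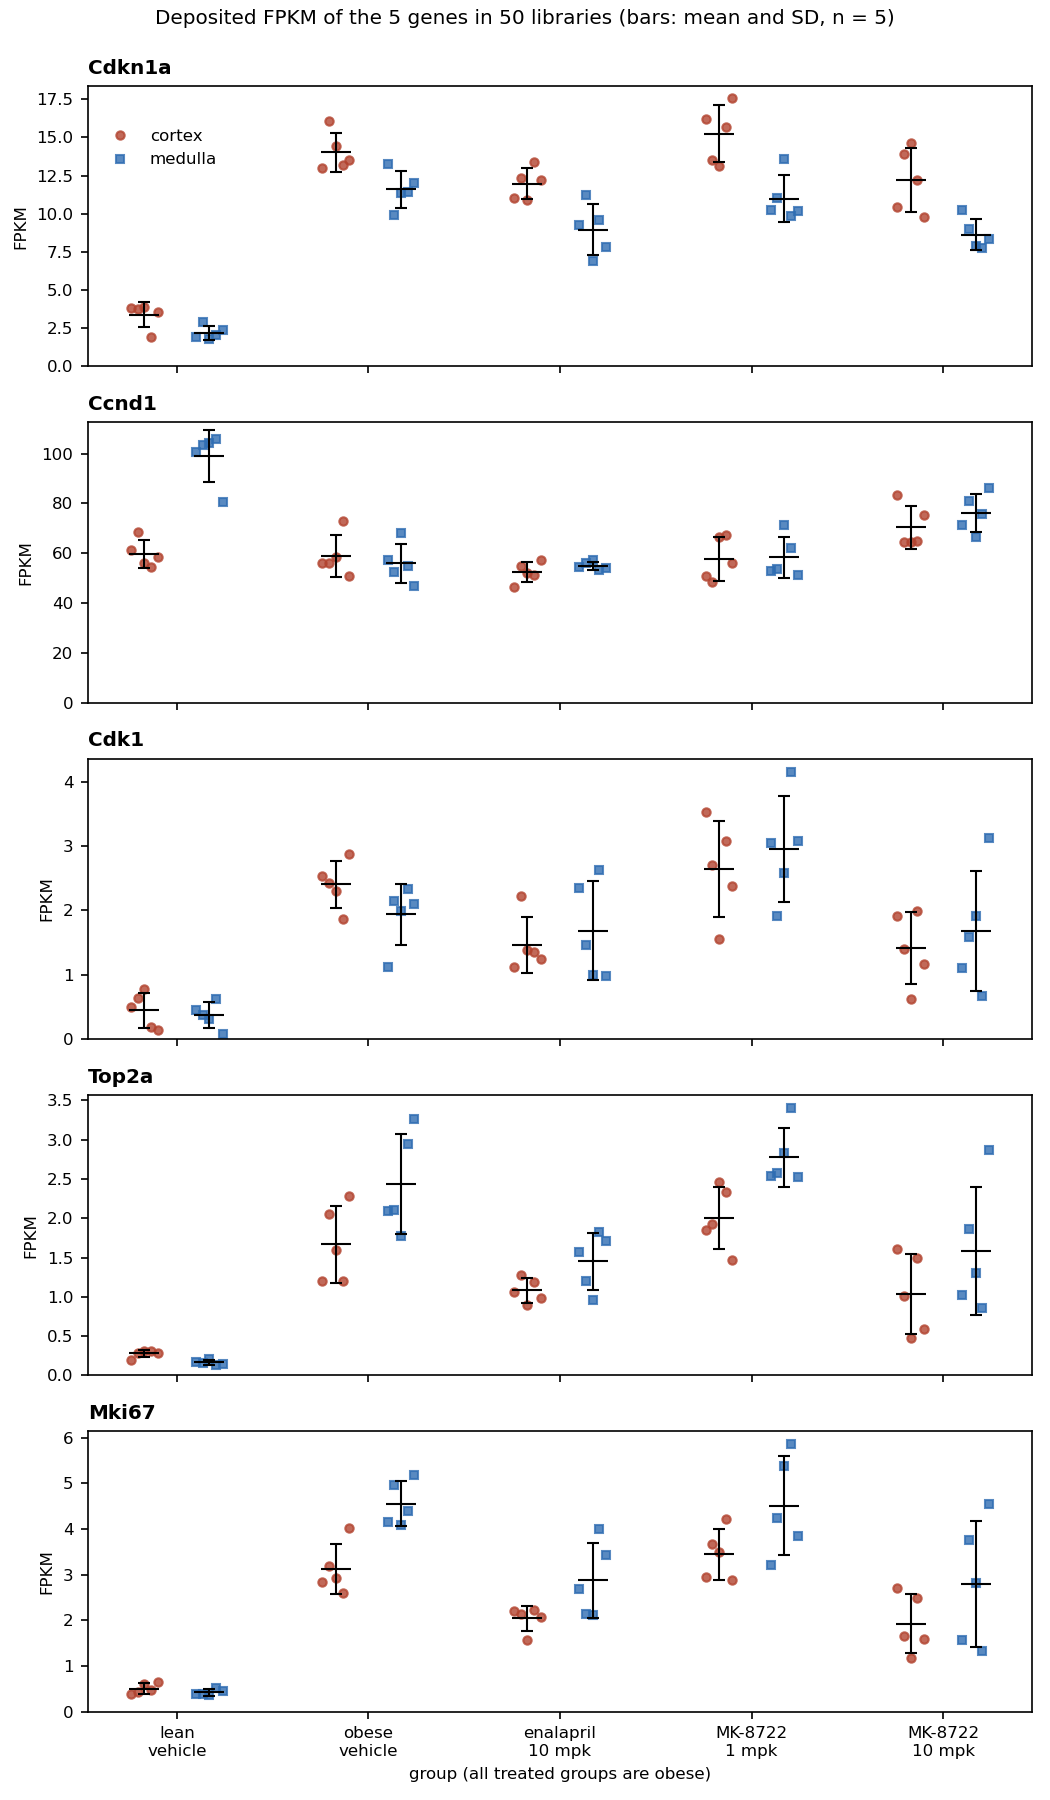
FPKM (vertical axes, linear from 0) of each gene in the 50 libraries, by group (horizontal axis), with cortex as circles and medulla as squares, and the mean and SD of 5 libraries as bars. Cdkn1a, Cdk1, Top2a and Mki67 are lowest in both lean groups, whereas Ccnd1 is highest in lean medulla at 99.01 FPKM.

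Cdkn1a, the gene of p21, measured 3.84, 3.73, 3.89, 1.91 and 3.59 FPKM in lean cortex (replicates 1, 2, 3, 6 and 7). In obese vehicle cortex it measured 13.0, 16.1, 14.5, 13.2 and 13.5 FPKM (replicates 1, 2, 3, 5 and 6). Every obese library was above every lean one, with means of 14.03 ± 1.27 and 3.39 ± 0.836 FPKM (SD, n = 5). The log2 fold change was 1.93 ± 0.135 (SE, limma adjusted p = 1.21e-10), or 1.62 after rescaling, and 2.33% of all genes had a larger one. Lean medulla held 1.93, 2.92, 1.76, 2.07 and 2.36 FPKM (replicates 1, 3, 5, 6 and 7), against 13.2, 9.89, 11.4, 11.4 and 12.04 FPKM in obese vehicle medulla (replicates 3 to 7). The groups again did not overlap, and the log2 fold change of 2.17 ± 0.124 (SE) had an adjusted p of 1.33e-12. Every obese vehicle library was above every lean one for 36.4% of all genes in cortex and 45.7% in medulla. Over all 10 groups the order of Cdkn1a levels broke only once. The lowest obese group, medulla with MK-8722 10 mpk (8.63 ± 1.01 FPKM), lay clear of lean cortex, and every other neighbouring pair overlapped. All 40 obese libraries lay between 6.89 and 17.6 FPKM, and all 10 lean libraries between 1.76 and 3.89 FPKM.

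Mki67, the proliferation marker, measured 0.377, 0.437, 0.609, 0.474 and 0.639 FPKM in lean cortex. In obese vehicle cortex it measured 2.84, 3.20, 2.93, 2.60 and 4.03 FPKM. No library of one group reached the other, and the log2 fold change was 1.84 ± 0.154 (SE, limma adjusted p = 1.55e-09). In lean medulla its values were 0.380, 0.382, 0.364, 0.529 and 0.461 FPKM, and in obese vehicle medulla 4.15, 4.97, 4.08, 4.40 and 5.19 FPKM. No library overlapped there either, and the change was 2.45 ± 0.218 on the log2 scale (SE, adjusted p = 1.17e-09). Rescaling gave 1.61 in cortex and 2.19 in medulla, both still called.

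Top2a, needed to separate replicated chromosomes, measured 0.200, 0.282, 0.313, 0.314 and 0.286 FPKM in lean cortex. In obese vehicle cortex it measured 1.196, 2.06, 1.60, 1.21 and 2.28 FPKM. The ranges did not overlap, and the log2 fold change was 1.45 ± 0.190 (SE, limma adjusted p = 9.24e-07). Lean medulla held 0.173, 0.163, 0.214, 0.134 and 0.148 FPKM, and obese vehicle medulla 2.09, 2.11, 1.77, 2.95 and 3.27 FPKM. The medulla change was 2.11 ± 0.196 on the log2 scale (SE, adjusted p = 2.32e-09).

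Cdk1, the mitotic kinase, was the most scattered of the 3 in lean rats, with 0.503, 0.630, 0.770, 0.188 and 0.142 FPKM in cortex and 0.452, 0.378, 0.311, 0.629 and 0.0768 FPKM in medulla. Obese vehicle cortex held 2.53, 2.42, 2.30, 1.87 and 2.88 FPKM, all above lean, with a log2 fold change of 1.66 ± 0.220 (SE, limma adjusted p = 1.12e-06). Obese vehicle medulla held 1.12, 2.15, 1.99, 2.33 and 2.09 FPKM, also all above lean, with a change of 1.496 ± 0.267 (SE, adjusted p = 3.13e-05). In medulla, where lean libraries were deeper, the change was 0.94 with relative depth as a term and no longer passed (adjusted p = 0.0546). Relative depth was 0.960 to 1.147 in lean and 0.581 to 0.790 in obese vehicle medulla. These ranges did not overlap, so that fit cannot separate depth from genotype. The coefficient of variation of Cdk1 was 61.4% in lean cortex and 54.7% in lean medulla, against 16.7% and 18.5% for Top2a.

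Ccnd1, cyclin D1, was by far the most abundant of the 5, between 46.5 and 106 FPKM in every library. Lean medulla stood out with 101, 104, 104, 106 and 80.7 FPKM, while obese vehicle medulla measured 57.3, 52.5, 68.0, 54.8 and 46.9 FPKM. Each lean medulla library was above each obese one, a pattern that 8.42% of all genes showed in the direction of lower in obese. The log2 fold change was -0.82 ± 0.0993 (SE, limma adjusted p = 1.38e-07), and -1.22 after rescaling. In cortex the lean libraries held 61.2, 68.6, 56.1, 54.3 and 58.4 FPKM and the obese vehicle libraries 56.2, 56.1, 58.3, 72.9 and 50.7 FPKM. These overlapped fully, with a change of -0.03 on the log2 scale and a 95% interval from -0.24 to 0.19 (adjusted p = 0.837). After rescaling the cortex change was -0.37 and was called (adjusted p = 0.0154), where 22.3% of all genes were called lower, so the call in cortex depends on the scale. The difference between tissues was itself tested. The change with obesity was more negative in medulla than in cortex by 0.80 ± 0.145 on the log2 scale (SE, adjusted p = 0.000313), a contrast in which 4.86% of genes were called, and by 0.84 after rescaling. None of Cdkn1a, Cdk1, Top2a or Mki67 was called in that contrast, with adjusted p of 0.166 to 0.875. With only the compared groups fitted, Mki67 was called as well, its rise being larger in medulla (interaction -0.61, adjusted p = 0.0358).

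**Figure D2:**
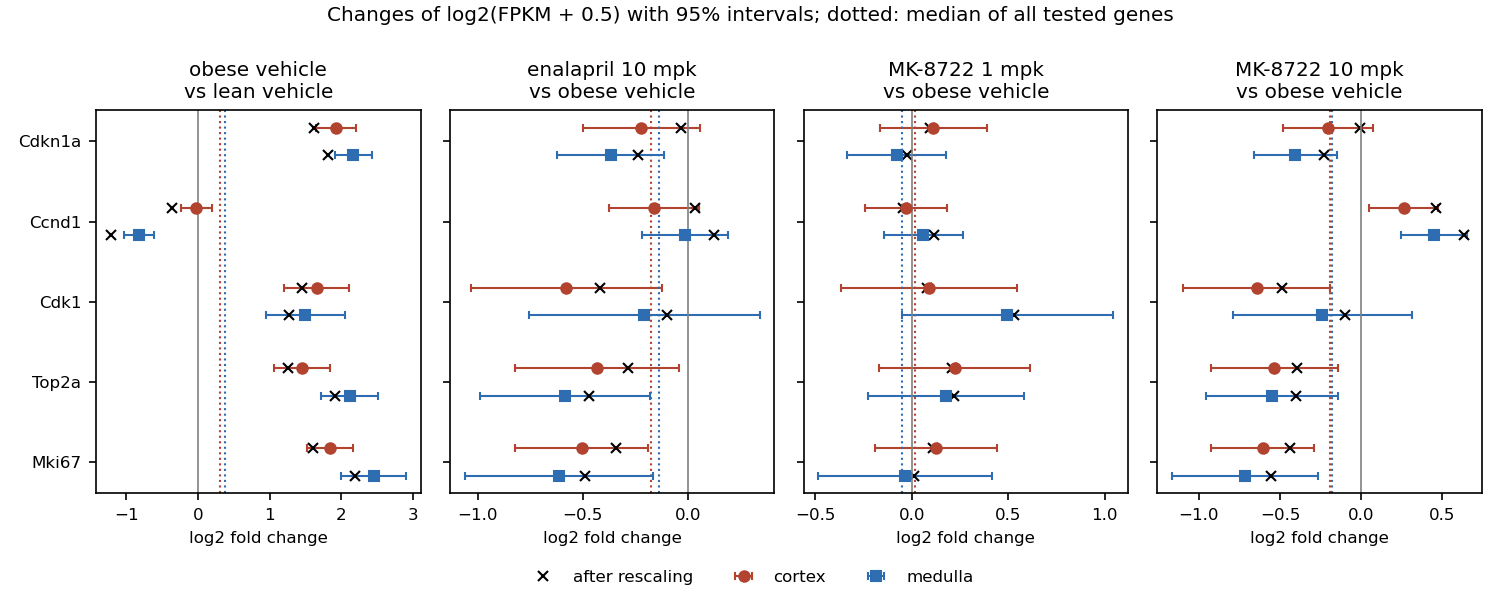
Log2 fold changes of log2(FPKM + 0.5) (horizontal axes, a different range in each panel) with 95% intervals for the 5 genes (vertical axis) in 4 comparisons, cortex as circles and medulla as squares. Crosses give the value after median-ratio rescaling and dotted lines the median of all tested genes, and the obese against lean panel shows Ccnd1 apart from the other 4 genes.

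Tissue levels were compared within genotype. In lean rats Ccnd1 was lower in cortex than in medulla by a log2 difference of -0.72 ± 0.103 (SE, limma adjusted p = 1.29e-07), with no overlap, as for 24.3% of all genes. Cdkn1a was higher in lean cortex than in lean medulla, with a difference of 0.50 ± 0.132 (adjusted p = 0.00186). These were 2 of 5 genes in a comparison where 39.9% of all genes were called. Cdk1, Top2a and Mki67 did not pass in lean rats, with differences of 0.11, 0.22 and 0.12. In obese vehicle rats Ccnd1 differed by 0.07 between the tissues, with a 95% interval from -0.13 to 0.28. There 1 of 5 genes was called, against 46.6% of all genes. Mki67 was lower in obese cortex by -0.49 ± 0.191 (adjusted p = 0.0323), with cortex libraries at 2.60 to 4.03 FPKM and medulla libraries at 4.08 to 5.19 FPKM, a separation that 18.1% of all genes showed. That call was lost after rescaling (-0.32, adjusted p = 0.131), with depth as a term (-0.11, adjusted p = 0.722), and without cortex replicate 1, 3 or 5 or medulla replicate 4 or 7 (adjusted p of 0.0587 to 0.0888). The count of called genes was 2 without cortex replicate 2 or 6 or medulla replicate 5. Cdkn1a did not pass between the obese vehicle tissues as deposited (0.27, limma adjusted p = 0.0925). After rescaling it was called higher in cortex (0.45, adjusted p = 0.0100), where 39.5% of all genes were called in either direction.

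MK-8722 at 10 mpk was compared with obese vehicle in each tissue. In cortex Cdk1, Top2a and Mki67 were called lower, 3 of 5 genes where 24.5% of all genes were called lower and 2.12% higher. With relative depth as a term none of these 3 calls held. In medulla Mki67 and Cdkn1a were called lower and Ccnd1 higher, where 16.5% of all genes were called lower and 1.6% higher. Across all genes the median log2 fold change was -0.19 (cortex) and -0.18 (medulla). At this dose Mki67 averaged 1.93 ± 0.647 FPKM in cortex and 2.81 ± 1.38 FPKM in medulla (SD, n = 5), against lean means of 0.507 and 0.423 FPKM. No member passed the test of a difference between tissues in the response to this dose, with adjusted p of 0.797 to 0.996 in a contrast where 0.226% of genes were called. At an unadjusted p under 0.05 (limma) the count of members in that contrast was also 0, and that of all genes 1207 of 14586.

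Mki67 with MK-8722 10 mpk measured 2.71, 1.66, 1.17, 2.49 and 1.60 FPKM in cortex (replicates 2, 4, 5, 6 and 7), so that only replicate 2 reached into the range of obese vehicle. Its log2 fold change was -0.61 ± 0.154 (SE, limma adjusted p = 0.00705), and -0.44 after rescaling (adjusted p = 0.0390). It was called whichever library was left out, but not once relative depth was a term (-0.45, adjusted p = 0.211), nor in cortex libraries of the lower number range alone (-0.50, adjusted p = 0.0970), nor with only the compared groups fitted (adjusted p = 0.0803). In medulla it measured 1.58, 3.77, 2.81, 1.34 and 4.54 FPKM (replicates 1, 2, 3, 5 and 6), a wide spread in which replicate 6 lay inside the obese vehicle range of 4.08 to 5.19 FPKM. The medulla change of -0.72 ± 0.218 (SE) had an adjusted p of 0.0275. It missed the threshold after rescaling (-0.56, adjusted p = 0.107), with depth as a term (-0.42, adjusted p = 0.170), and when replicate 1 or 5 of this dose, or replicate 4 or 7 of obese vehicle, was left out (0.0574 to 0.0977).

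Top2a in cortex measured 1.60, 1.01, 0.478, 1.49 and 0.588 FPKM at this dose. Replicates 2 and 6 lay among the obese vehicle values of 1.196 to 2.28 FPKM, and the other 3 lay below them. Top2a changed by -0.54 ± 0.190 (SE, limma adjusted p = 0.0392). Cdk1 measured 1.91, 1.40, 0.625, 1.99 and 1.17 FPKM, with replicate 5 inside the lean range, and its change was -0.64 ± 0.220 (SE, adjusted p = 0.0340). Neither gene was called once replicate 4, 5 or 7 of this dose, or replicate 2 or 6 of obese vehicle, was left out (adjusted p of 0.0556 to 0.149). Cdk1 was also lost without obese vehicle replicate 1 (adjusted p = 0.0675). With depth in the fit the changes were -0.29 for Top2a and -0.47 for Cdk1 (adjusted p = 0.577 and 0.418), after rescaling -0.40 and -0.49 (adjusted p = 0.1501 and 0.162), and in the lower number range alone -0.33 and -0.50 (adjusted p = 0.291 and 0.226). With replicate number as a block in the fit, Cdk1 changed by -0.47 (limma adjusted p = 0.0786). In medulla neither gene passed with all libraries. Top2a was called there in 3 of 10 fits with a library left out (lowest limma adjusted p = 0.00598). Top2a measured 1.02, 1.86, 1.30, 0.857 and 2.87 FPKM, a difference of -0.55 (adjusted p = 0.0525), and Cdk1 measured 1.1001, 1.59, 1.91, 0.673 and 3.13 FPKM, a difference of -0.24 (adjusted p = 0.524, 95% interval -0.79 to 0.31).

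Ccnd1 moved the other way in medulla. With MK-8722 10 mpk it measured 71.4, 81.2, 66.7, 75.6 and 86.0 FPKM, and only replicate 3 lay inside the obese vehicle range of 46.9 to 68.0 FPKM. The log2 fold change was 0.45 ± 0.0993 (SE, limma adjusted p = 0.00533), which held whichever library was left out, and 0.63 after rescaling. Its mean of 76.2 ± 7.67 FPKM (SD, n = 5) lay between those of obese vehicle (55.9 ± 7.80) and lean vehicle (99.01 ± 10.4). In cortex it measured 83.6, 64.4, 64.4, 64.8 and 75.2 FPKM, against 50.7 to 72.9 FPKM in obese vehicle, a difference of 0.26 that missed the threshold as deposited (adjusted p = 0.0647) and passed after rescaling (0.46, adjusted p = 0.0188), where 4.32% of all genes were called higher. As deposited, the cortex difference was called in 2 of 10 fits with a library left out (lowest limma adjusted p = 0.01265). Higher Ccnd1 and lower Mki67 were thus measured in the same medulla group, and inside groups the 2 genes had r = 0.212 (permutation adjusted p = 0.835).

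Cdkn1a in medulla measured 10.2, 8.97, 7.87, 7.77 and 8.31 FPKM with MK-8722 10 mpk, with replicate 1 alone inside the obese vehicle range. The log2 fold change was -0.41 ± 0.124 (SE, limma adjusted p = 0.0278), against lean libraries all under 3 FPKM. It was -0.23 after rescaling (adjusted p = 0.308) and -0.41 with depth as a term (adjusted p = 0.0716). Leaving out replicate 3 or 5 of this dose, or replicate 3 or 7 of obese vehicle, also lost the call (adjusted p of 0.0563 to 0.0736). In cortex Cdkn1a measured 10.5, 13.9, 14.6, 12.2 and 9.79 FPKM, a difference of -0.21 (adjusted p = 0.250) that was -0.01 after rescaling.

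MK-8722 at 1 mpk gave no call among the 5 genes in either tissue, where 0% of all genes were called. At an unadjusted p under 0.05 (limma) the count of members was 0 in each tissue, and that of all genes 583 in cortex and 577 in medulla. Mki67 averaged 3.44 ± 0.549 FPKM in cortex and 4.51 ± 1.09 FPKM in medulla (SD, n = 5), against 3.12 ± 0.553 and 4.56 ± 0.497 FPKM with obese vehicle. Its log2 differences were 0.12 (95% interval -0.19 to 0.44) and -0.03 (-0.48 to 0.41). Cdk1 in medulla had the widest gap, 1.91 to 4.15 FPKM against 1.12 to 2.33 FPKM, a difference of 0.50 with an interval from -0.05 to 1.05.

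The doses of MK-8722 were also compared directly. In cortex 4 of 5 genes were called, Ccnd1 higher and Cdk1, Top2a and Mki67 lower at 10 than at 1 mpk, where 30.2% of all genes were called. Mki67 at 1 mpk measured 2.94, 3.67, 3.50, 4.21 and 2.89 FPKM (replicates 1, 2, 4, 6 and 7), all above the values at 10 mpk, and 9.44% of all genes separated in this direction. Its log2 difference was -0.73 ± 0.154 (SE, limma adjusted p = 0.00274), and Top2a differed by -0.76 ± 0.190 (adjusted p = 0.00721), both also called after rescaling. Cdk1 differed by -0.73 (adjusted p = 0.0173) and was not called after rescaling (-0.57, adjusted p = 0.0907). Ccnd1 differed by 0.29 (adjusted p = 0.0389), and by 0.51 after rescaling (adjusted p = 0.00990). Relative depth as a term, or the lower number range alone, left none of the 4 called, with Mki67 at -0.60 and -0.62 (adjusted p = 0.0623 and 0.0630). Cdk1 was not called without 10 mpk replicate 5 (adjusted p = 0.0751) or 1 mpk replicate 1 (0.0536). Ccnd1 was not called without 10 mpk replicate 2, 5 or 7 or 1 mpk replicate 1, 2 or 7 (0.0560 to 0.103). In medulla 2 of 5 genes were called, against 5.92% of all genes. Ccnd1 differed by 0.39 ± 0.0993 (SE, adjusted p = 0.0269) and Top2a by -0.73 ± 0.196 (adjusted p = 0.0325). After rescaling Ccnd1 differed by 0.52 (adjusted p = 0.00511), while Top2a was no longer called (-0.62, adjusted p = 0.0577), nor was it with depth in the fit (-0.61, adjusted p = 0.0558). Neither gene was called with the replicate block (adjusted p = 0.0813 for Ccnd1 and 0.103 for Top2a) or with only the compared groups fitted (0.107 and 0.130). Ccnd1 was lost without 10 mpk replicate 5 or 1 mpk replicate 1, 6 or 7 (adjusted p of 0.0515 to 0.0663), and Top2a without 10 mpk replicate 1, 3 or 5 or 1 mpk replicate 4, 6 or 7 (0.0531 to 0.116). Without 10 mpk replicate 6, 4 of the 5 genes were called.

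Enalapril gave lower means than obese vehicle for Mki67, Top2a, Cdk1 and Cdkn1a in both tissues, and 1 call. Across all genes the median log2 fold change was -0.18 (cortex) and -0.14 (medulla). Cdkn1a in cortex (-0.22) and Cdk1 in medulla (-0.21) lay close to these medians. The other differences of these 4 genes lay further below the medians. Mki67 in cortex was the call, 1 of 5 genes where 13.9% of all genes were called lower and 0.479% higher. It measured 2.20, 2.15, 1.57, 2.22 and 2.08 FPKM (replicates 1, 2, 4, 6 and 7), all below obese vehicle, and 5.04% of all genes separated in this direction. The log2 fold change of -0.50 ± 0.154 (SE) had a limma adjusted p of 0.0350. It missed the threshold after rescaling (-0.34, adjusted p = 0.138) and with depth in the fit (-0.39, adjusted p = 0.326). Leaving out any one of enalapril replicates 2, 4, 6 and 7 and obese vehicle replicates 1, 2 and 6 also lost it (adjusted p of 0.0590 to 0.103). Without obese vehicle replicate 5, or in the lower number range alone, Cdk1 and Top2a were called as well, with changes of -0.63 and -0.54 in the latter (adjusted p = 0.0440 and 0.0294).

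In medulla enalapril gave 0 calls among the 5 genes (limma), against 10.6% of all genes. At an unadjusted p under 0.05 the count of members was 3, and that of all genes 4425 of 14195. The 3 members were Cdkn1a (-0.37, adjusted p = 0.0557), Top2a (-0.58, adjusted p = 0.0547) and Mki67 (-0.61, adjusted p = 0.0657). After rescaling their changes were -0.24, -0.47 and -0.49 (limma adjusted p = 0.245, 0.113 and 0.138). Mki67 measured 2.70, 2.13, 2.11, 3.998 and 3.43 FPKM (replicates 2, 3, 5, 6 and 7), all below the lowest obese vehicle library at 4.08 FPKM, a pattern of 7.14% of genes. Single libraries set the count of calls. It was 1 when enalapril replicate 3, enalapril replicate 6 or obese vehicle replicate 5 was left out. Ccnd1 did not pass with enalapril in either tissue, with differences of -0.16 (95% interval -0.37 to 0.06) in cortex and -0.01 (-0.22 to 0.19) in medulla. Its 5 medulla values lay close together, at 54.3, 56.1, 57.2, 53.4 and 54.0 FPKM. For enalapril, too, no member passed the test of a difference between tissues, with adjusted p of 0.996 to 0.999 where 0.00686% of genes were called (limma). In that test 0 members had an unadjusted p under 0.05, and 774 of all 14586 genes did.

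When MK-8722 and enalapril were set against each other at 10 mpk each, Ccnd1 was the one gene of the 5 that was called. They are different compounds, so equal doses by weight are not matched exposures. Ccnd1 was higher with MK-8722 in cortex by 0.42 ± 0.104 on the log2 scale (SE, limma adjusted p = 0.00951). The medulla difference was 0.46 ± 0.0993 (adjusted p = 0.0132). In cortex all MK-8722 values, 64.4 to 83.6 FPKM, were above all enalapril values, 46.5 to 57.4 FPKM. In medulla 66.7 to 86.0 FPKM stood against 53.4 to 57.2 FPKM. This was 1 of 5 genes in each tissue, with 3.83% (cortex) and 0.817% (medulla) of all genes called higher, and 3.09% and 0.683% separated without overlap. Both differences held after rescaling and whichever library was left out, and the cortex one missed the threshold in the lower number range alone (0.48, adjusted p = 0.111). For Cdkn1a, Cdk1, Top2a and Mki67 the drugs differed by -0.10 to 0.03 on the log2 scale, with adjusted p of 0.782 to 0.977. For Mki67 the 95% interval ran from -0.42 to 0.21 in cortex and from -0.55 to 0.35 in medulla.

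Beyond the group means, Top2a and Mki67 varied together from library to library. After subtraction of group means, their log2 values correlated over 25 cortex libraries with Pearson r = 0.866 and Spearman rho = 0.825 (permutation within groups, adjusted p = 0.0004 and 0.0016 over 20 pairs of genes and tissues). In medulla r was 0.838 and rho 0.808 (permutation adjusted p = 0.001 and 0.0018). Without the 2 libraries farthest from the median of Top2a, r was 0.789 in cortex and 0.733 in medulla. The ratio of Mki67 to Top2a, both in FPKM, had group medians between 1.58 and 2.35 although each gene's level ranged widely. In single libraries it ran from 1.27 (medulla, MK-8722 1 mpk) to 3.96 (medulla, lean vehicle). Among 13578 other tested genes in cortex, Top2a ranked 1 in likeness to Mki67, and Mki67 ranked 4 in likeness to Top2a. In medulla, among 14194 genes, the ranks were 18 and 36. The libraries at the ends of this relation were mostly those of MK-8722 10 mpk. In that group Mki67 had a coefficient of variation of 33.6% in cortex and 49.1% in medulla, and Top2a of 49.4% and 51.4%, against 10.9% to 29.5% for both genes with obese vehicle. Inside groups, relative depth had r of -0.417 and -0.336 in cortex and -0.545 and -0.644 in medulla with Top2a and Mki67, given without a test, and the part of depth in their correlation was not tested.

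**Figure D3:**
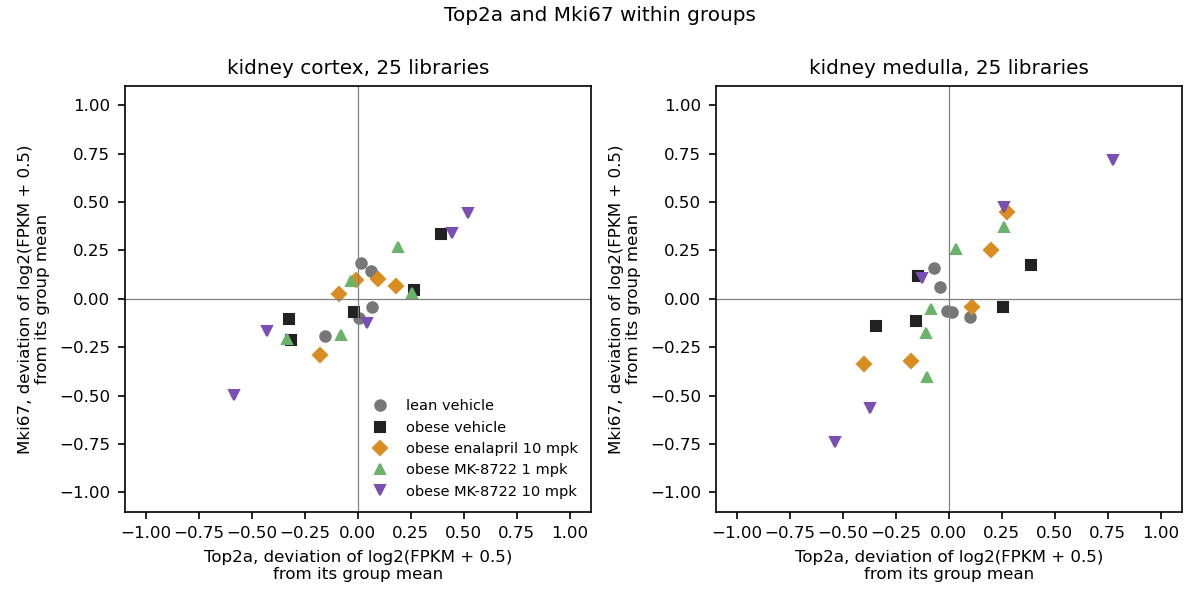
Deviation of Top2a (horizontal axis) and Mki67 (vertical axis) from their group means, in units of log2(FPKM + 0.5), for 25 cortex and 25 medulla libraries, with a marker for each group. The points rise together, with r of 0.866 in cortex and 0.838 in medulla, and MK-8722 10 mpk libraries lie at the ends.

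Cdk1 followed this pair less closely. It correlated with Top2a in medulla with r = 0.648 (permutation adjusted p = 0.0368), but Spearman's rho of 0.542 did not pass (adjusted p = 0.127) and r was 0.431 without the 2 farthest libraries. In cortex r was 0.467 (permutation adjusted p = 0.152). Cdkn1a and Ccnd1 showed no passing correlation with any other member in either tissue, and 17 of the 20 relations did not pass. Cdkn1a and Mki67, the arrest gene and the proliferation marker, had r of -0.156 in cortex and 0.00497 in medulla over 25 libraries each (permutation adjusted p = 0.976 and 0.982). The ratio of Cdkn1a to Ccnd1, both in FPKM, gave group medians of 0.0196 in lean and 0.209 in obese vehicle medulla, with 0.111 at 10 mpk of MK-8722. In cortex these medians were 0.0615, 0.248 and 0.189.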

How the data were processed

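Total RNA from flash-frozen kidney cortex and medulla was sequenced as stranded libraries after ribosomal RNA removal, per the labels' protocols. The authors deposited FPKM values for 32545 Ensembl gene IDs in 50 libraries, per the file headers. Aligner, counter and build were not given in the sources used here. Columns were matched to samples by library number. FPKM are not counts, so limma 3.58.1 in R 4.3.3 (mean-variance trend, robust) was fitted to log2(FPKM + 0.5) of genes with at least 1 FPKM in 5 or more libraries of the fit. There were 13579 such genes in cortex and 14195 in medulla (25 libraries each), and 14586 in a joint fit of 50 libraries for tissue differences and interactions. Tests were two-sided, with Benjamini-Hochberg adjustment over all tested genes. Absolute depth is unknown. Relative depth came from the steps of low values: in 5001 genes detected in 5 to 22 libraries, 93.9% of 57855 values were whole multiples of 1 read within 0.1 reads. Within-group correlations used 100000 permutations. The scripts were tested on simulated data.

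All 5 genes are named in every comparison by rule, and the genes, gene lists and tests were chosen with earlier results of these data known. Lists of other cell cycle genes and of cell type markers were not run, because 0 of 32545 IDs matched the reference gene table. Alternatives were a pseudocount of 0.1, no filter, median-ratio rescaling, only the groups compared, a replicate block, relative depth as a term, library number range as a term and each library left out. Cortex libraries of the lower number range alone were added after seeing the data. Replicate numbers recur across groups. Among all pairs of groups in a tissue, every same-numbered pair had r over 0.1 across genes only for MK-8722 10 mpk and obese vehicle in cortex. For those 3 pairs r was 0.242 to 0.41. These groups had different treatments, and replicate 2 was the shallowest library of each (relative depth 1.0002 and 0.7878). The cause of the likeness was not tested, so it does not show that the libraries are paired.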

Additional observations from a re-analysis of the deposited data

Results flagged for a closer look

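Of the 50 gene and group combinations, 6 had a library far from the other 4, with a gap of over 0.71 of the group's range. Chance gives such a gap in about 1 in 20 groups. Cdkn1a was lowest in cortex lean vehicle replicate 6, at 1.911 FPKM beside 3.59 to 3.89 FPKM. Ccnd1 was lowest in medulla lean vehicle replicate 7, at 80.7 FPKM beside 101 to 106 FPKM, and it still lay above every obese vehicle library. Cdk1 was highest in cortex enalapril replicate 2, at 2.225 FPKM beside 1.13 to 1.38 FPKM, and lowest in medulla obese vehicle replicate 3, at 1.123 FPKM beside 1.99 to 2.33 FPKM. Top2a was lowest in cortex lean vehicle replicate 1, at 0.2002 FPKM, and Mki67 in cortex enalapril replicate 4, at 1.567 FPKM. Without the latter library the cortex change of Mki67 with enalapril was -0.43 (adjusted p = 0.0904), where with all libraries it was -0.50 (limma adjusted p = 0.0350).

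The change of Ccnd1 with obesity differed between the tissues by 0.7968 on the log2 scale in a test of the interaction (limma adjusted p = 0.000313). It was between 0.72 and 0.87 whichever library was left out.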

How the results depend on the processing

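Against lean vehicle, the calls of Cdkn1a, Top2a and Mki67 in both tissues held under every alternative run, as did that of Ccnd1 in medulla. Drug effects depended on the processing, and the cause was not tested. Calls of the 5 genes are counted here. With the replicate block, MK-8722 10 mpk against obese vehicle in cortex had 2 calls in place of 3, since Cdk1 was lost. In the other comparisons within a tissue, not every same-numbered pair had r over 0.1 across genes. For enalapril and obese vehicle in cortex, r was 0.011 to 0.193 over 3 pairs. Same-numbered libraries of cortex and medulla were not checked against each other. In these other comparisons the block gave 3 calls in place of 1 for enalapril in cortex, and 1 in place of 0 in medulla. It gave 0 in place of 2 between the MK-8722 doses in medulla, and 2 in place of 1 between tissues in obese vehicle rats. Fitting only the groups compared gave 2 calls between those tissues and 2 in the interaction of tissue with genotype in place of 1. It gave 0 for enalapril in cortex, 1 for enalapril in medulla, 0 for MK-8722 10 mpk in cortex, and 2 in cortex and 0 in medulla between the doses. Relative depth as a term gave 0 calls between tissues in obese vehicle rats, 0 for enalapril in cortex, 0 in cortex and 1 in medulla for MK-8722 10 mpk, and 0 in cortex and 1 in medulla between the doses. The lower number range alone, chosen after seeing the data, gave 3 calls for enalapril, 0 for MK-8722 10 mpk, 0 between the doses and 0 between the drugs, and the range as a term gave 1 for MK-8722 10 mpk and 2 between the doses. Neither applies to medulla, which has no library of the higher range. Rescaling gave 0 calls for enalapril in cortex, 1 for MK-8722 10 mpk in medulla and 1 between the doses in medulla. Without the filter these were 0 for enalapril in cortex, 1 for MK-8722 10 mpk in cortex and 1 between the doses in medulla. With each library left out in turn, calls ran from 0 to 3 for enalapril in cortex and 0 to 1 in medulla, from 1 to 4 for MK-8722 10 mpk in either tissue, from 2 to 4 in cortex and 0 to 4 in medulla between the doses, and from 0 to 2 between tissues in obese vehicle rats.

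Directions reversed only for differences that were not called. For Ccnd1 these were enalapril against obese vehicle (0.034 in cortex and 0.12 in medulla after rescaling, 0.011 in medulla with the block), MK-8722 1 mpk in cortex (0.057 in the lower range) and obesity in cortex (0.00297 with depth). For Cdk1 they were lean cortex against medulla (-0.012 with the block) and MK-8722 10 mpk against enalapril (in cortex 0.067 with the block, 0.13 in the lower range and 0.037 with the range as a term, in medulla 0.12 with depth). Between those drugs Cdkn1a took -0.0034 with the block and -0.034 with the range in cortex and 0.0066 after rescaling in medulla. Mki67 there took 0.084 in the lower range in cortex and 0.11 with depth in medulla, and Top2a 0.20 in the lower range and 0.00061 with the range in cortex. Mki67 with MK-8722 1 mpk in medulla was 0.014 after rescaling and 0.11 with depth. Top2a in the interaction of tissue with MK-8722 10 mpk was -0.0081 after rescaling, -0.024 with the block and -0.045 with a pseudocount of 0.1. Within-group r after rescaling was 0.21 for Cdkn1a and Ccnd1, -0.18 for Ccnd1 and Top2a and -0.092 for Ccnd1 and Mki67 in cortex. In medulla it was -0.18 for Cdkn1a and Top2a, -0.22 for Cdkn1a and Mki67, -0.042 for Ccnd1 and Cdk1, -0.18 for Ccnd1 and Top2a and -0.048 for Ccnd1 and Mki67. With a pseudocount of 0.1, r of Ccnd1 and Cdk1 in cortex was 0.038. That of Cdk1 and Top2a in medulla no longer passed with that pseudocount (0.574) or after rescaling (0.577).

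With each library left out, differences that were not called crossed 0 in these ranges. Ccnd1 ran from -0.0051 to 0.15 between tissues in obese vehicle rats, -0.073 to 0.0601 with enalapril in medulla, -0.088 to 0.049 with MK-8722 1 mpk in cortex and -0.015 to 0.13 in medulla, and -0.11 to 0.025 with obesity in cortex. Cdk1 ran from -0.034 to 0.23 between lean tissues and -0.0078 to 0.24 with MK-8722 1 mpk in cortex. Between MK-8722 10 mpk and enalapril, Cdk1 ran from -0.17 to 0.11 in cortex and -0.24 to 0.17 in medulla, Cdkn1a from -0.053 to 0.086 and -0.12 to 0.044, Mki67 from -0.21 to 0.021 and -0.28 to 0.081, and Top2a from -0.23 to 0.042 and -0.16 to 0.17. Mki67 ran from -0.13 to 0.066 with MK-8722 1 mpk in medulla and -0.076 to 0.29 in the interaction of tissue with MK-8722 10 mpk, and Top2a from -0.12 to 0.21 in the latter. The lean values of Cdk1, Top2a and Mki67 all lay under 1 FPKM, and with depth as a term the medulla change of Cdk1 with obesity no longer passed. Depth did not overlap between lean and obese vehicle medulla, so that fit cannot separate it from genotype.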

Other observations

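Ratios of the arrest gene to the proliferation marker, both in FPKM, were also computed inside each library, with no test. The ratio of Cdkn1a to Mki67 had a median of 6.39 in lean cortex (4.03 to 10.2 over 5 libraries) and 4.94 in obese vehicle cortex (3.34 to 5.07). It was 5.87 with enalapril, 3.76 with MK-8722 1 mpk and 6.14 with MK-8722 10 mpk, where single libraries ran from 3.86 to 12.5. In medulla the medians were 5.10 in lean rats and 2.60 in obese vehicle rats, with ranges of 3.91 to 7.65 and 1.99 to 3.19 that did not overlap. The other obese medulla groups had medians of 3.26 with enalapril, 2.60 with MK-8722 1 mpk and 2.80 with MK-8722 10 mpk. In obese medulla the transcripts of both genes were higher than in lean medulla, and there was less Cdkn1a per unit of Mki67 in every obese vehicle library than in any lean one.

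The ratio of Top2a to Cdk1 had a median of 0.448 in lean cortex and 0.696 in obese vehicle cortex, and of 0.430 and 1.26 in medulla. Single lean libraries ran from 0.213 to 2.02, since Cdk1 was as low as 0.0768 FPKM there.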
